A study of Mus musculus with 33 samples.

Results

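Peaks of chromatin immunoprecipitation sequencing (ChIP-seq) for the heat shock factor HSF1 were compared between HSF1-/- mouse embryonic fibroblasts (MEFs) and wild type MEFs, both after 60 min of heat shock. The question was which wild type peaks have a knockout peak under them, that is, a peak at the same place in cells that lack the target of the antibody. The members are 4 peak lists, chosen by genotype, time and antibody. These are the HSF1 knockout list of the antibody labelled CS (5964 peaks), the knockout list of the antibody labelled MM (3497 peaks), the wild type CS list (4773 peaks) and the wild type MM list (4614 peaks). Together they hold 18848 of the 45686 peaks in the 15 peak lists of the series, which has 33 samples. Both genotypes had the strain background 129Sv.BALB/c. CS stands for an antibody from Cell Signaling and MM for one given by the Morimoto lab. The labels do not name the protein that either binds, and the file headers call the experiment an Hsf1 ChIP-seq.

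HSF1 is the master regulator of the transcriptional answer to heat. In stressed cells it forms trimers, moves onto DNA at heat shock elements, which are arrays of the unit GAA in alternating orientation, and raises the transcription of genes for molecular chaperones. A peak that an antibody still gives in cells without HSF1 measures what else it, or the method, brings down at that place.

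The knockout lists were called on 1 library each with no control library, and the wild type lists on 2 merged replicates against the same IgG library. A peak has a tag count, the number of sequenced ends in it. The knockout libraries held 8.97 M (CS) and 7.39 M (MM) tags after removal of duplicates (M, mega), against 19.6 M and 14.0 M in wild type. The fragment length that the peak caller estimated was 38 bp in both knockout libraries, little more than the 36 bp of a tag, and in wild type 161 (CS) and 114 bp (MM). Median peak length was 102 bp in both knockout lists, against 924 and 621 bp in the wild type lists, and the median tag count was 5 in both knockout lists, against 65 and 36. The genotype, the control, the number of replicates, the depth and the fragment length therefore differ together and cannot be told apart. There is 1 list per genotype and antibody, so no comparison has a replicate or a test, and the 95% exact (Clopper-Pearson) intervals given here cover counting error only. No peak of any of the 4 lists lay in the Hsf1 gene (chromosome 15, 76477362 to 76501155, mm10), and peak lists do not show the deletion or the cell type.

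Both antibodies together marked 3455 shared wild type regions, each a group of CS and MM peaks that overlap by at least 1 bp. A knockout peak was rare under these, and where there was one it was short and low, as most knockout peaks were. The HSF1 unit was first looked for in the promoters at these regions. The next 4 promoters hold a wild type summit and a knockout peak within the same 300 bases, 250 before to 50 after the gene's start, and are shown to let the place of both be seen against the motif. They belong to Jun, a subunit of the AP-1 transcription factor, Cct6a, a subunit of the cytosolic chaperonin TRiC, Kctd18, a BTB-domain protein, and Dnajb2, a cochaperone of Hsp70. Sequences are the reference ones of RefSeq (GRCm38.p6, the same primary assembly as mm10), 5′ to 3′ on the gene's strand. Capitals mark GAANNTTC or TTCNNGAA, each of which reads the same on both strands, and overlapping matches run together.
Jun (chr4:95052173-95052472, minus strand): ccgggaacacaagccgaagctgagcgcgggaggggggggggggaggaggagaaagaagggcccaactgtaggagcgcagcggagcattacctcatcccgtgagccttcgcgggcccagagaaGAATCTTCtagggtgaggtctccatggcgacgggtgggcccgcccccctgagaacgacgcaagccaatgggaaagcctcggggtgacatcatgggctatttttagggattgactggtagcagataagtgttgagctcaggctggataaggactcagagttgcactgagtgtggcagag
Cct6a (chr5:129787106-129787405, plus strand): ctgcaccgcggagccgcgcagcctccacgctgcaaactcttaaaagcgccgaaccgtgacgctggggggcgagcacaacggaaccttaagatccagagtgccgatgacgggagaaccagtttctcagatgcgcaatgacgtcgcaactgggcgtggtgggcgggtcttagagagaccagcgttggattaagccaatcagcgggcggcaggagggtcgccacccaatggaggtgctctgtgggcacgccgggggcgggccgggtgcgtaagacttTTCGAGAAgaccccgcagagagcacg
Kctd18 (chr1:57970035-57970334, minus strand): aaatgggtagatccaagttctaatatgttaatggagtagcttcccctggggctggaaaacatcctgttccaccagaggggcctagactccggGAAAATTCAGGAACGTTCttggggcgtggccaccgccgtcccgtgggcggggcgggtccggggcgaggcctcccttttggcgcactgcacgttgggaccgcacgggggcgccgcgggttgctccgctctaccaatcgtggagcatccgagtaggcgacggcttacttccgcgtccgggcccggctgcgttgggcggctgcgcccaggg
Dnajb2 (chr1:75236452-75236751, plus strand): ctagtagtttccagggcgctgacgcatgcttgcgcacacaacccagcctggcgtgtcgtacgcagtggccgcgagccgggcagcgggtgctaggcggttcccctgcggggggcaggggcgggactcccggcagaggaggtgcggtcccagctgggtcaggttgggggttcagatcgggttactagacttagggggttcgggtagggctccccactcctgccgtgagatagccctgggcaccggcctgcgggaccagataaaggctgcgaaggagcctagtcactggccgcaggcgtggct

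In the Jun promoter the knockout CS summit lay 155 bases before the start and the shared wild type summit 100 before it, 30.5 and 24.5 bases from the middle of the motif. The other promoters with a match had their knockout summits farther away. In Cct6a the knockout CS summit was 217.5 bases from the motif and the wild type summit 16.5, and in Kctd18 these distances were 131.5 and 2.5 bases. Dnajb2 had no match in its window, with the knockout MM summit 166 and the wild type summit 205 bases before the start.

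Promoters of strong wild type regions without a knockout peak from any of the 6 knockout lists are shown for comparison. Hsph1 encodes an Hsp110 that acts as a nucleotide exchange factor of Hsp70, Dnaja1 a J-domain partner of Hsp70 and Chordc1 a cochaperone of Hsp90. The wild type summits lay 22.5, 21.5 and 1.5 bases from the nearest match in these 3 windows, in that order, in regions of 1225, 980 and 647 CS tags. Other such promoters, not shown, had no match in the window, among them those of Trmt1l (595 CS tags) and Ahsa1 (549 CS tags).
Hsph1 (chr5:149636266-149636565, minus strand): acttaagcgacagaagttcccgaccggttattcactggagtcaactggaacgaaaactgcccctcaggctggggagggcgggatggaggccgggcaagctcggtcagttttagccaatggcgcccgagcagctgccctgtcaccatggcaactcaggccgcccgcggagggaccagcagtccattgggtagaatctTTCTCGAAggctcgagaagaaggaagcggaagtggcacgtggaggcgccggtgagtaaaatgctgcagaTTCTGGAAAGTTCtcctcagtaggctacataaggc
Dnaja1 (chr4:40722218-40722517, plus strand): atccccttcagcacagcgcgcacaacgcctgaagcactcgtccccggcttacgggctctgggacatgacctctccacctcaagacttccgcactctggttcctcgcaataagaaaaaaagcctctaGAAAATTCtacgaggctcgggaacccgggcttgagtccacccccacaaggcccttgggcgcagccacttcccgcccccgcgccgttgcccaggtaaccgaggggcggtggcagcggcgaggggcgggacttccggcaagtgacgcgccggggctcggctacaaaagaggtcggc
Chordc1 (chr9:18292017-18292316, plus strand): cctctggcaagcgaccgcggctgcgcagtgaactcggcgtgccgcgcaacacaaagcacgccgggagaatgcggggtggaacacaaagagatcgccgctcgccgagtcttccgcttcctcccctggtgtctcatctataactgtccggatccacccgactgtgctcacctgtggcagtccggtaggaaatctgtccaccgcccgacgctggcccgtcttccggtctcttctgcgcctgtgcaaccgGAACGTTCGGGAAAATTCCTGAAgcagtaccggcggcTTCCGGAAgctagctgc

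Over the 32817 RefSeq promoters looked at, 15.1% hold either motif. Of the promoters with a wild type shared summit in the window, 6 of the 11 with a knockout peak in it held a match, against 120 of the 195 without one (61.5%, 54.3% to 68.4%). Both groups count promoters and not sites. Promoters that share a region, such as those of Kat7 and Gm11520 or of Trmt1l and Swt1, enter separately, and the interval treats them as independent. Promoters with a knockout peak and no wild type region held a match in 45 of 409 cases (11.0%, 8.14% to 14.4%). In the 6 promoters with both kinds of summit and a match, which are 4 sites because Jun and Junos share one and Cct6a and Psph share another, the knockout summit was a median of 134 bases from the motif and the wild type summit 20.5. Over all 126 promoters with a wild type summit and a match, the wild type distance was a median of 12.5 bases, and 113 had it within 50 bases. A match describes letters in the window and does not show a bound site.

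Knockout peaks lay under few wild type peaks with either antibody. Of the wild type CS peaks, 92 of 4773 overlapped a knockout CS peak (1.93%, interval 1.56% to 2.36%), and of the wild type MM peaks, 55 of 4614 overlapped a knockout MM peak (1.19%, 0.899% to 1.55%). Of the shared regions, 115 of 3455 overlapped a knockout peak of either antibody (3.33%, 2.76% to 3.98%). Only the CS knockout list had a peak in 78 of these, only the MM knockout list in 35, and both in 2. The 2 are the region of Arc, an immediate early gene first known from neurons, with knockout peaks of 6 CS and 8 MM tags, and one on chromosome 19 (5841132 to 5849828) that overlaps Neat1, the long noncoding RNA of paraspeckles, with 8 CS and 10 MM tags. Of the 2, the knockout peaks of the antibodies overlapped each other at Arc alone.

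Wild type peaks found by 1 antibody alone had different shares, with intervals that did not overlap. A knockout peak of either antibody lay under 24 of 1316 wild type peaks found by CS alone (1.82%, 1.17% to 2.70%) and under 53 of 1110 found by MM alone (4.77%, 3.60% to 6.20%). The MM-only peaks were shorter, with a median of 581 bp against 799 bp, and the knockout peaks per megabase of wild type peak stood at 78.9 for MM alone, 25.8 for CS alone and 30.4 for shared regions. The median false discovery rate in the authors' lists was 8.22% for MM-only peaks, against 3.375% for CS-only peaks. Their median tag counts were 25 and 38. All peaks of the wild type MM list had a median of 36 tags and all of the CS list 65. The lists also differ in depth, so these counts do not show which of the groups is weaker. MM-only peaks had their summit within 1 kb of an end of an annotated gene, here called a gene end, in 39.6% of cases (440 of 1110), against 13.8% of CS-only peaks (181 of 1316). Under the MM-only peaks at gene ends the share with a knockout peak was 8.64% (38 of 440, 6.18% to 11.7%), and under those inside and outside genes 2.03% and 2.65%. Among CS-only peaks at gene ends it was 2.76% (5 of 181, 0.903% to 6.33%).

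**Figure D1:**
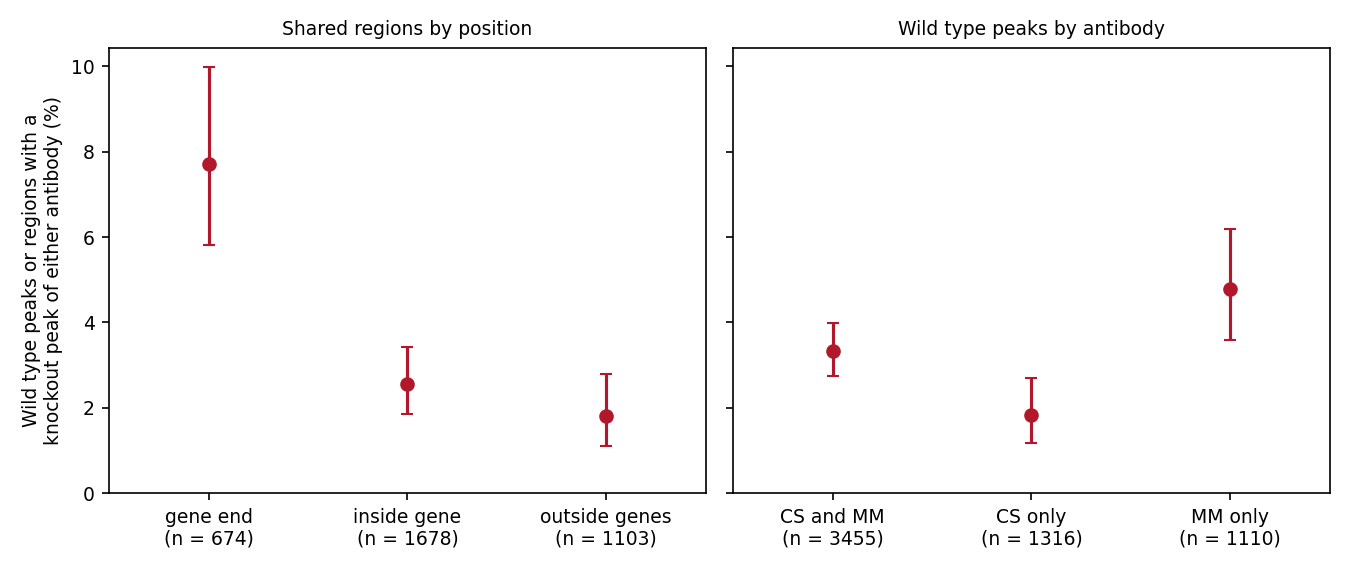
Share of 60 min wild type shared regions (left, by the place of their summit) and of wild type peaks (right, by the antibody that found them) with a 60 min HSF1 knockout peak of either antibody under them. Points are shares in percent and bars 95% exact intervals, which cover counting error only; regions at gene ends (7.72%) and peaks found by MM alone (4.77%) stand highest.

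At the ends of protein-coding genes, the 10 regions whose knockout peaks had the most tags, ties broken by score, had wild type counts from 109 CS tags at Ankrd11 to 1818 at Hsp90ab1. Ccn1, which encodes a secreted matrix protein and is an immediate early gene, came first, with knockout CS peaks of 18 and 12 tags and no knockout MM peak. Its wild type region (chromosome 3, 145648133 to 145650890) had 170 CS and 108 MM tags. Another knockout CS peak at Ccn1, of 45 tags, lay at 145646160 to 145646738, outside the wild type region and near the other end of the gene. Ankrd11, a chromatin regulator with ankyrin repeats, had a knockout CS peak of 11 tags under a region of 109 CS and 116 MM tags, and its summit lay 12 bp from the wild type summit. At Ermard and Tcte3, which share a region, the knockout CS peak had 9 tags and the wild type region 378 CS and 244 MM tags.

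The highest wild type tag count of all shared regions was also among these. Hsp90ab1, which encodes the constitutive cytosolic Hsp90, had a knockout CS peak of 8 tags (chromosome 17, 45573827 to 45573963), no knockout MM peak, and a wild type region of 1818 CS and 1429 MM tags. The knockout summit was 4 bp from the wild type summit. The knockout peak at Phlda1, a pleckstrin homology-like protein, had 8 CS tags under 599 CS and 461 MM tags in wild type. Ubr2, a ubiquitin ligase of the N-degron pathway, had 7 knockout CS tags, 9 bp from the wild type summit, under 361 and 245 tags. Ddx23, a helicase of the spliceosome, and Ndufa6, a subunit of respiratory complex I, each had a knockout MM peak of 7 tags. Their wild type regions had 236 CS and 137 MM tags at Ddx23, and 228 and 128 at Ndufa6. Col5a1, a collagen V chain, had 7 knockout CS tags under 289 CS and 92 MM tags, and Arc had a wild type region of 323 CS and 216 MM tags. In all 10 the knockout count was below the wild type count of either antibody, in lists that differ in depth and control, and no knockout peak exceeded 18 tags.

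Regions at protein-coding gene ends with the best mean of CS and MM fold enrichment ranks and no peak in any of the 6 knockout lists were those of Etnk2, an ethanolamine kinase (252 CS and 179 MM tags), Fadd, the adaptor of death receptors (383 and 223 tags), Ints2, an Integrator subunit (502 and 335 tags), Lrrc61 (522 and 398 tags) and Zfand1, a zinc finger protein (245 and 182 tags). Next came Anxa11, an annexin (207 and 105 tags), Hspa4l, an Hsp110 (580 and 510 tags), Clu, the extracellular chaperone clusterin (292 and 209 tags), Dscaml1, a cell adhesion protein (271 and 198 tags), and Hspb1, a small heat shock protein (533 and 403 tags).

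The share with a knockout peak was higher where the wild type tag count was higher, and followed no order by fold enrichment. The authors' fold enrichment over background ranks regions by contrast and their tag count by amount. The regions were ranked by each and divided into 4 rank groups of equal size. By fold enrichment the share with a knockout peak was 4.05% in the strongest rank group (35 of 864), then 2.43%, 2.89% and 3.94% in the weakest (34 of 863). By tags it was 6.94% (60 of 864, 5.34% to 8.85%) in the rank group with the most tags, then 3.70%, 2.20% and 0.463% (4 of 863, 0.126% to 1.18%).

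Regions with more tags were also longer, with medians of 1483.5 bp in the rank group with the most tags and 779 bp in that with the fewest. By length alone the shares were 7.87%, 2.89%, 1.74% and 0.811% from the longest rank group to the shortest. Per megabase of region, the knockout peaks still numbered 46.3, 31.2, 22.1 and 5.92 from the most tags to the fewest. In a window of fixed length, 500 bp centred on the wild type summit, the shares by tags were 3.47%, 2.55%, 1.04% and 0.463%. Among regions longer than the median, the rank groups by tags had 7.31%, 4.92%, 1.95% and 0%, and among shorter ones 1.75%, 1.36%, 2.33% and 0.488%. The order from most to fewest tags held in the longer regions, where the last group had 43, and not in the shorter ones, with 1 to 13 regions with a knockout peak in each group.

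**Figure D2:**
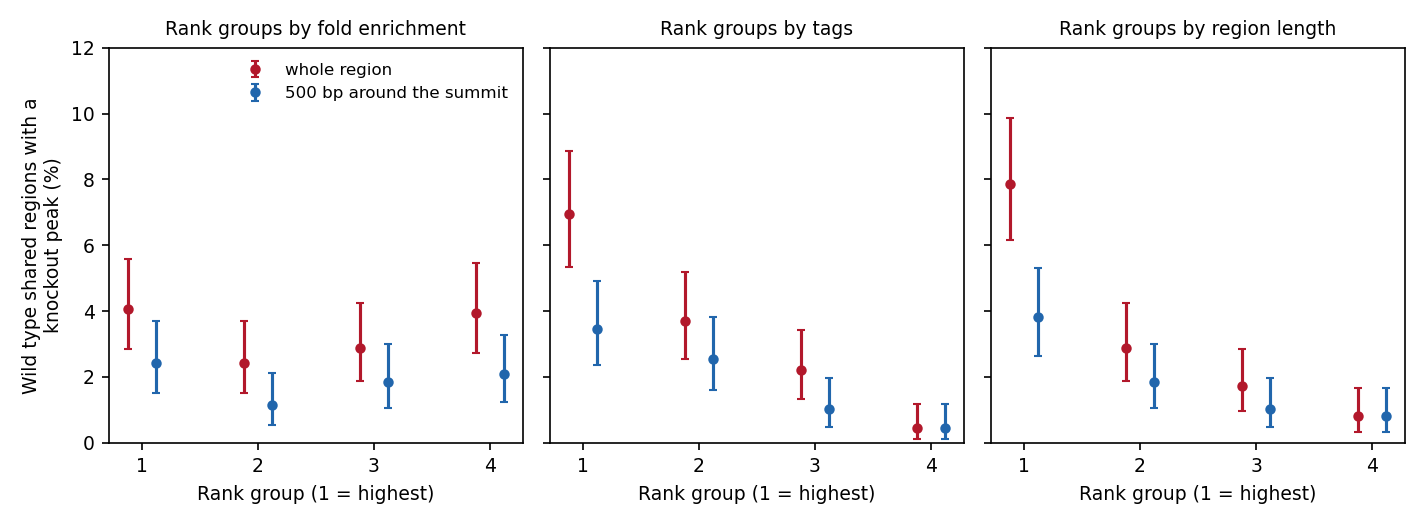
Share of wild type shared regions with an HSF1 knockout peak in each of 4 rank groups of the 3455 regions, by mean rank of fold enrichment (left), by mean rank of tags (middle) and by length (right), with 1 the highest. Red points take the whole region and blue points a fixed window around the wild type summit; bars are 95% exact intervals. By tags the whole-region share is 6.94% in rank group 1 and 0.463% in rank group 4, and by fold enrichment 4.05% and 3.94%.

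Regions with a knockout peak had a median length of 1452 bp, against 988 bp for those without, and medians of 162 CS and 89 MM tags, against 85 and 41. Their median fold enrichment was 37.7 for CS and 23.5 for MM, against 36.5 and 24.2. Among the 20 regions with the most wild type CS tags, 4 had a knockout peak: that of Hsp90ab1, that over Neat1 (1084 CS tags), that inside Cbx7 (816 CS tags) and that at Gm40320, an uncharacterised locus (708 CS tags). Among the 100 with the most, 9 did. Of the regions whose CS and MM peaks both had a false discovery rate of 5% or less in the authors' lists, 105 of 2882 had a knockout peak, and of those with both above it, 1 of 98.

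The knockout peaks under the shared regions were 121 in number, 83 from the CS list and 38 from the MM list. They had 5 to 18 tags, and 76 of them (62.8%) had 5, the fewest of any knockout peak, against 58.0% of all 9461 knockout peaks. Only 4 had 10 tags or more: those of 18 and 12 tags at Ccn1, that at Ankrd11 and the MM peak over Neat1. The score, minus 10 times the log10 of the p-value, reached 79.4. Of the 1559 knockout peaks with a p-value of 1e-10 or less, 870 of CS and 689 of MM, none lay under a shared region. Only 5 regions had more than 1 knockout peak, and none had more than 3.

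**Figure D3:**
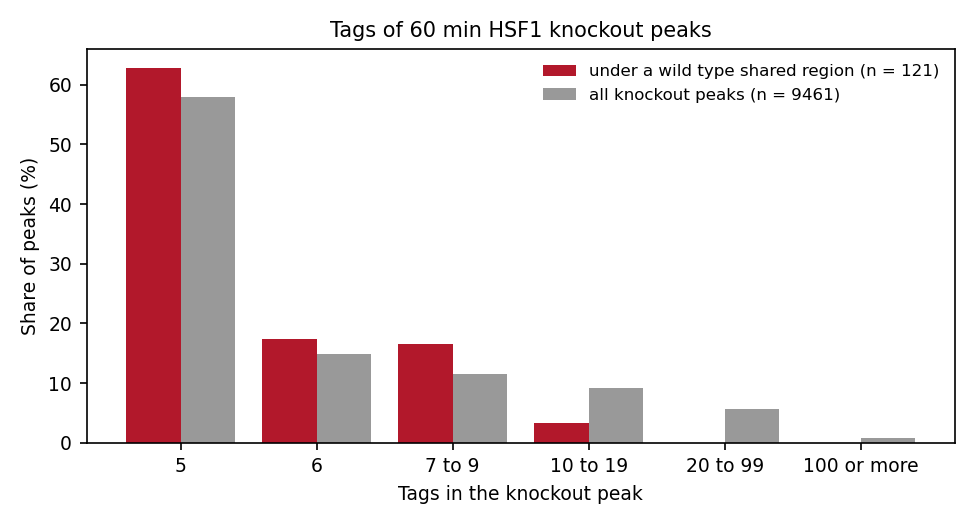
Share of 60 min HSF1 knockout peaks by their number of tags, for the 121 under a wild type shared region (red) and for all 9461 peaks of both knockout lists (grey). Peaks with 5 tags make up 62.8% of the first and 58.0% of the second, and no peak under a shared region has 20 tags or more.

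Seen from the knockout lists, the strongest of 4 rank groups of peaks had the lowest share over a wild type peak. By rank of score from strongest to weakest, 0.738%, 1.81%, 1.74% and 4.43% of the knockout CS peaks lay over a wild type peak of either antibody, and of the knockout MM peaks 0.686%, 2.17%, 2.29% and 3.78%. Peak lengths were similar over the rank groups, with medians of 80 to 106 bp. Of the 5 peaks with the most tags in each knockout list, 4 were at the same places in both. They lay on chromosome 14 (19415702 to 19419705, 5024 CS tags), at the ribosomal RNA-related loci AY036118 and Rn18s-rs5 on chromosome 17 (4670 CS and 3978 MM tags) and at 2 places on chromosome 2, the first at 98666236 to 98667337 (1868 CS tags). The fifth was on the mitochondrial genome for CS (1568 tags) and, for MM, the peak with the most tags of either list, on chromosome 9 (2999999 to 3009170, 9654 tags). Each of those on the nuclear chromosomes was 105655 bp or more from the nearest wild type shared summit.

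A few strong knockout peaks did lie over wild type peaks, each found by 1 antibody alone in wild type. Of the knockout peaks with p of 1e-10 or less, 3 CS and 2 MM peaks did so, over 3 wild type peaks. The first was at Gm32584, a predicted gene on chromosome 5, with a knockout CS peak of 30 tags and a knockout MM peak of 12 tags over a wild type CS peak of 65 tags (36660709 to 36661844). The knockout CS summit there was 10 bp from the wild type summit. On chromosome 15 (47539787 to 47540350) knockout peaks of 11 CS and 15 MM tags lay under a wild type MM peak of 53 tags, and on chromosome 3 (142191462 to 142191948) knockout peaks of 11 CS and 9 MM tags under one of 31 tags.

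Knockout summits were denser at the wild type summits than around them. Within 250 bp of the shared wild type summits, knockout summits of either antibody numbered 36.5 per 1000 regions and kilobase, against 7.99 at 5 to 10 kb away, 4.57 times as many. At gene ends these values were 86.1 and 8.31 (10.4 times), and away from gene ends 24.5 and 7.91 (3.09 times). The centre held 63 summits in all, 29 of them at gene ends, so single bins are thinly filled. Away from gene ends the highest single flank bin of 250 bp reached 30.2, above the centre, against 35.6 at gene ends, below it. Inside the regions the nearest knockout summit was a median of 210 bp from the wild type summit (quartiles 80 and 503 bp, highest 1742 bp), within 500 bp in 85 of the 115 regions and within 100 bp in 32 of them.

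**Figure D4:**
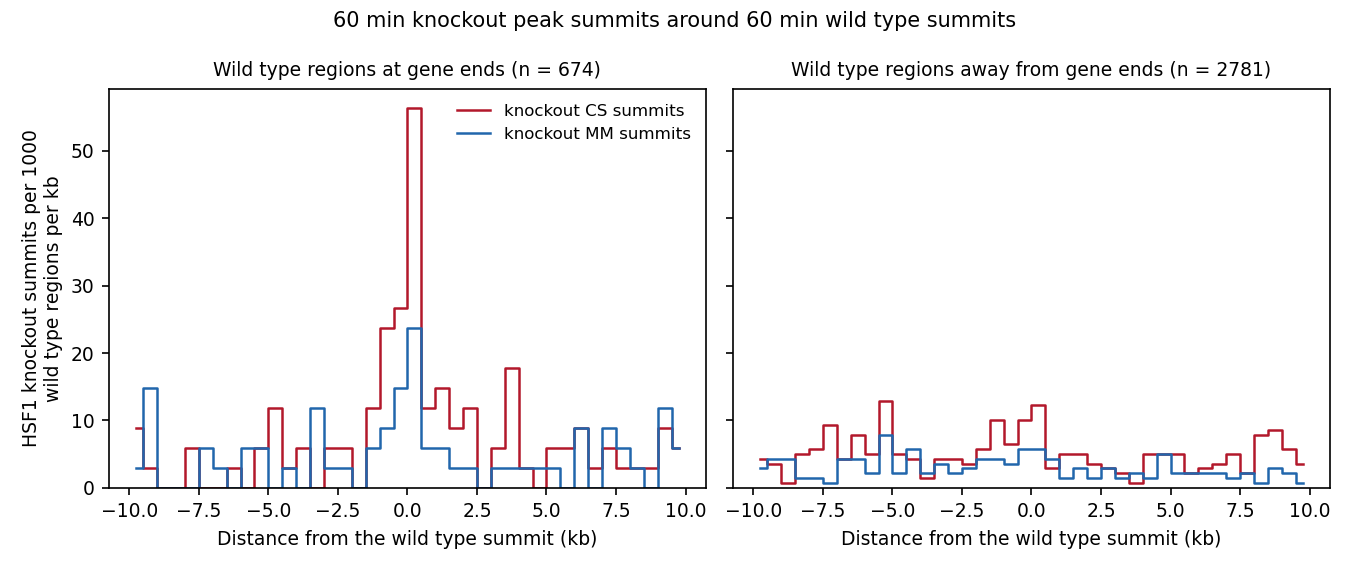
HSF1 knockout peak summits per 1000 wild type shared regions and kilobase, by distance from the wild type summit in kilobases, in bins of 500 bp, for knockout CS (red) and knockout MM (blue) summits. Regions at gene ends (left, 674 regions) have a peak of both at the centre; away from gene ends (right, 2781 regions) the centre lies above the mean of the flanks (24.5 within 250 bp against 7.91 at 5 to 10 kb, both antibodies together), but single flank bins stand as high as it.

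In 15 regions both summits lay within 50 bp. Beside Ankrd11, Hsp90ab1 and Ubr2 these were regions at the ends of Kat7, a histone acetyltransferase, Dnajb2, Cebpb, a C/EBP transcription factor, and Pidd1 with its neighbour Rplp2, which codes for a ribosomal stalk protein. Inside genes they included Mylk, myosin light chain kinase, Gnas, the stimulatory G protein subunit, Septin9, a septin of the cytoskeleton, and Gm42150. The last 3 lay outside genes on chromosomes 1, 4 and X. Apart from Ankrd11, Hsp90ab1 and Ubr2, the knockout peaks at these 15 places had 5 or 6 tags.

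The share with a knockout peak was highest at gene ends, and its interval there did not meet those of the other places. Of the shared regions at the end of an annotated gene, 52 of 674 had a knockout peak (7.72%, 5.82% to 9.99%), of those inside a gene 43 of 1678 (2.56%, 1.86% to 3.44%) and of those outside genes 20 of 1103 (1.81%, 1.11% to 2.79%). Regions at gene ends were longer, with a median of 1270.5 bp, against 964 and 957 bp, and the knockout peaks per megabase were 58.7 at gene ends, 23.3 inside and 18.5 outside genes. In the 500 bp window the shares were 4.60%, 1.55% and 0.725%. With starts from the promoter table, 44 of 490 regions within 1 kb of a start had a knockout peak (8.98%, 6.60% to 11.9%), against 71 of 2881 farther away (2.46%, 1.93% to 3.10%). Together these groups hold fewer than the 3455 shared regions. Of the regions at a gene end but not at a start, 13 of 229 had a knockout peak (5.68%, 3.06% to 9.51%). That interval overlaps the one for regions inside genes. Of the 559 protein-coding genes with a shared region at an end, 63 had a knockout summit at an end, in or out of the region (11.3%, 8.77% to 14.2%). Among the 21072 other protein-coding genes the share was 5.07% (4.78% to 5.37%). The 63 include genes whose knockout peak lay under the region, so this count partly repeats the overlap given above.

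Between chromosomes the share ran from 0 of 97 regions on chromosome 12 and 0 of 84 on chromosome 18 to 9 of 105 on chromosome 19 (8.57%, 3.99% to 15.6%). The Neat1 region and that of Malat1, an abundant nuclear long noncoding RNA, are both on chromosome 19, a short way from each other. At Malat1 the knockout MM peak had 9 tags under a wild type region of 558 CS and 317 MM tags (5801917 to 5804222).

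The strongest regions inside genes with a knockout peak were in Cbx7, a Polycomb protein, with a knockout CS peak of 5 tags under 816 CS and 617 MM tags, and in Niban1, with 6 knockout CS tags under 306 and 152. They were followed by Igf1r, the receptor of insulin-like growth factor, with 5 knockout MM tags under 213 and 96, Prickle1, of planar cell polarity, with 5 MM tags under 399 and 342, and Npas4, an activity-induced transcription factor, with 7 MM tags under 498 and 137. Outside genes they were on chromosome X (77489500 to 77490957, 261 CS and 115 MM tags in wild type) and on chromosome 4 next to Vwa1, a matrix protein gene (155774332 to 155776377, 312 and 208 tags). The next 3 lay on chromosome 1 (191529086 to 191530085, 154 and 71 tags), chromosome 3 (87033203 to 87034291, 190 and 96 tags) and chromosome 9 (63123511 to 63124991, 194 and 109 tags). Each of these 5 had a knockout CS peak of 5 tags.

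By gene, 559 of 21631 protein-coding genes (2.58%) had a shared wild type region at an end, and 47 of the 559 had one with a knockout peak (8.41%, 6.24% to 11.0%). Of the 43 listed genes of cytosolic chaperones and cochaperones outside TRiC, 29 had a region and 3 of those a knockout peak (10.3%, 2.19% to 27.4%), a share near that of all marked genes. The 3 were Hsp90ab1, Dnajb2 with a knockout MM peak of 5 tags under 131 CS and 101 MM tags, and Cacybp, the calcyclin-binding protein that interacts with Hsp90 and a ubiquitin ligase, with 5 MM tags under 531 and 443.

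Most listed chaperone genes had no knockout peak under their region at 60 min, and so it was for marked genes of any kind, 8.41% of which had one. The counts per list are small, and each list's exact interval includes that share. None lay under the regions of the 7 marked Hsp70 and Hsp110 genes: Hspa8, the constitutive Hsp70 (1156 CS and 832 MM tags), Hspa1b, an inducible Hsp70 (1402 and 1166 tags), Hspa1a and Hspa1l, which share a region (857 and 789 tags), Hspa4 (207 and 132 tags), Hspa4l and Hsph1. The same held for Hsp90aa1, the inducible cytosolic Hsp90 (845 and 711 tags), the 3 small heat shock protein genes Hspb1, Hspb2 and Hspb8, and 5 of the 6 J-domain genes. It held as well for Hspd1 and Hspe1, the mitochondrial chaperonin pair (1275 and 1096 tags), for Hspa9, the mitochondrial Hsp70, and for all 5 marked genes of folding in the endoplasmic reticulum, among them Serpinh1, the collagen chaperone (563 and 387 tags). Ubb, a polyubiquitin gene with 1066 and 493 tags, had none either. Of the 8 TRiC genes, all of which had a region, 1 (12.5%) had a knockout peak: Cct6a, with a knockout CS peak of 6 tags under 257 CS and 170 MM tags.

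Of the 24 immediate early and AP-1 genes 4 had a shared region (16.7%), against the 2.58% of all protein-coding genes, and 2 of those a knockout peak: Jun, with 6 knockout CS tags under 293 CS and 235 MM tags, and Ccn1. Jund and Atf3, an AP-1 subunit and a stress-induced transcription factor, had none at 60 min. Of 24 actin cytoskeleton genes 4 also had a region (16.7%), and Myl12a, a myosin light chain, had a knockout MM peak of 6 tags under 354 and 177. Of 24 cell type markers 2 had a region (8.33%), Vim and Des. Vim, the fibroblast intermediate filament gene vimentin, had 7 knockout CS tags under 111 and 72. Des, listed as a muscle marker, had a region of 109 CS and 57 MM tags and no peak in any knockout list. Mt1, a metallothionein, had knockout peaks of 16 CS and 9 MM tags at an end of the gene, but none under its wild type region of 315 CS and 215 MM tags. None of the 5 heat shock factor genes and none of the 6 prefoldin genes had a shared region. Some immediate early genes without a shared region had knockout peaks at an end too. Examples are Ier5 (11 CS tags), Ccn2 (11 and 9 CS and 12 MM tags) and Ier3 (5 CS and 7 and 5 MM tags). So did genes of other lists, such as Calr (8 MM tags) and Zyx (6 CS tags). Of all protein-coding genes without a shared region at an end, 5.07% had a knockout summit at an end.

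**Figure D5:**
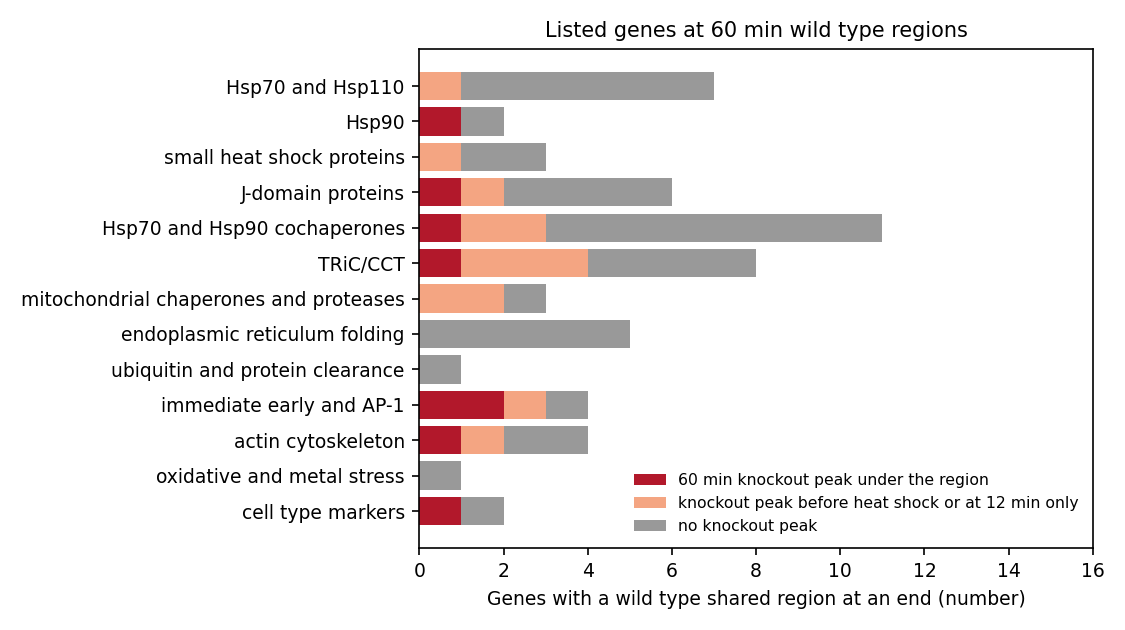
Number of listed genes with a 60 min wild type shared region at an end, split by whether an HSF1 knockout peak lay under that region at 60 min (red), only before heat shock or at 12 min (light), or in none of the 6 knockout lists (grey). Lists without a marked gene are left out; a red part of 1 gene stands for Hsp90, J-domain proteins, cochaperones, TRiC/CCT, actin and cell type markers, and of 2 genes for immediate early and AP-1.

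The knockout cells were also sampled before heat shock and after 12 min, with both antibodies, which shows how often the 60 min wild type regions meet a knockout peak in other libraries. Before heat shock 70 of the 3455 regions had a knockout CS peak and 46 a knockout MM peak, at 12 min 59 and 54, and at 60 min 80 and 37. The knockout libraries differ in depth, from 5.18 to 15.6 M tags, and in number of peaks, from 3170 to 7813. A peak from any of the 6 lists lay under 306 regions (8.86%, 7.93% to 9.85%), 272 of them with 1 list, 28 with 2 and 6 with 3. Those with 3 lists were at Ermard and Tcte3, Rangap1, the GTPase activator of Ran, Ndufa6, Ccn1, Vim and outside genes on chromosome 13 (51846259 to 51850196). No region had a peak in 4 lists or more.

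Of the 115 regions with a 60 min knockout peak, 22 also had one at another time (19.1%, 12.4% to 27.5%), against 191 of the 3340 without (5.72%, 4.96% to 6.56%). The regions with one were longer, as given above. Of all 559 marked genes, 119 had a knockout peak at some time (21.3%). Among cytosolic chaperones 8 of the 29 did (27.6%), a share near that of all marked genes, with Hspa1b in 2 lists and Dnajb1 in 1. Of TRiC genes 4 of 8 did, among them Cct2, Cct3 and Cct7, each with 1 list and none at 60 min. Of the 100 regions with the most wild type CS tags, 21 had one.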

How the data were processed

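The 4 deposited peak lists were compared. Per the file headers, the authors called them with MACS 1.4.2 at a p-value cutoff of 1e-04, the knockout lists with no control and the wild type lists against IgG, keeping 1 tag per position. The genome was mm10, per the submitters' processing notes, and no source used here names the aligner. Each deposited peak carries a tag count, a score (10 times the negative log10 of the p-value), a fold enrichment and, in wild type, a false discovery rate in percent. These are the authors' values. Ranks and cutoffs used them within a list. Tag counts and false discovery rates of different lists are given side by side as description and are not on a common scale.

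Overlap meant at least 1 bp. The tags of a shared region are those of its strongest CS and MM peaks, and its summit is the midpoint of their summits. Positions came from 49943 genes of GRCm38.p6, which have no strand, so both ends were used within 1 kb. Python 3.11.15 with pandas 2.3.3 and scipy 1.17.1 was used, and the overlap counts were tested on simulated data. Members, gene lists and settings were chosen with earlier results of these data known. The named regions are the 10 at protein-coding gene ends with the most knockout tags, the 10 best-ranked without a knockout peak, listed genes with one, the 5 best-ranked inside and outside genes, summits within 50 bp and the 5 highest knockout peaks per list. Other regions and genes, such as those with 3 lists or given as examples, were named after their values were seen.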

Additional observations from a re-analysis of the deposited data

How the results depend on the processing

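Of 89 recomputed values under 14 settings, 40 kept within the interval of the reported one and 49 moved out of it. Gene ends had the highest share of the 3 positions in each of the 12 settings that give positions, the reported one included. With the knockout summit required within 100 bp of the wild type summit, the shares were 0.629% (CS), 0.26% (MM), 0.926% (shared), 1.04% in both the first and last rank group by fold enrichment, 2.23% (gene end), 0.715% (inside) and 0.453% (outside). In the 500 bp window they were 1.09%, 0.780%, 1.88%, 2.43%, 2.09%, 4.60%, 1.55% and 0.725% in the same order. With knockout peaks of p of 1e-06 or less they were 0.147%, 0.130%, 0.203%, 0.231%, 0.232%, 0.742%, 0.119% and 0%, and 0% for the chaperone list. With knockout peaks of any time they were 5.17%, 3.68%, 8.86%, 10.3%, 10.4%, 18.0%, 7.21% and 5.80%, and 27.6% for the chaperone list. These settings change the length searched or the number of knockout peaks by construction. With wild type peaks of p of 1e-10 or less, CS stood at 2.39% and shared regions at 4.23%, and with a gene end limit of 5 kb gene ends stood at 5.11%. Ranking by tags gave 6.94% in the first and 0.463% in the last rank group.

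The 2 settings that leave out a knockout list were chosen after seeing the data. Without MM the shares were 2.32% (shared), 2.67% (last rank group), 5.34% (gene end) and 1.67% (inside). Without CS they were 1.07% (shared), 1.16% and 1.27% (first and last rank group), 2.52% (gene end), 0.894% (inside) and 0.453% (outside). No paired analysis was possible because each genotype and antibody has 1 list. Knockout peaks start at 5 tags, so weaker knockout signal under wild type peaks was not detectable, and the wild type libraries were deeper.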
